A study of Mus musculus with 42 samples.

Results

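Olfr56, Olfr330 and Olfr61 are 3 mouse odorant receptors (ORs) whose transcripts were more abundant after exposure to 1% TMT (trimethylthiazoline), a compound found in fox odor that mice avoid, than after exposure to undiluted TMT. They were chosen by their counts at 100% and 1% TMT in these same mice, as 3 of the 1088 intact ORs measured. The 1% and 100% TMT values are therefore given as a description without a test. The libraries at 0.01% and 0.1% TMT, at all concentrations of acetophenone (ACT), and from ventral and dorsal mucosa were not used in that choice and were tested.

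C57BL/6J mice of both sexes, 20 to 22 d old, spent 1 h with TMT or ACT at a concentration of 0.01%, 0.1%, 1% or 100% by volume, or without an odor. RNA was then recovered from the olfactory epithelium with an antibody against phosphorylated ribosomal protein S6 and sequenced (pS6-IP-Seq), with 3 mice in each group. Each replicate number stands for a litter: the 0.01% and 0.1% mice share 3 no odor littermates, and the 1% and 100% mice share another 3. RNA of ventral and dorsal olfactory mucosa from mice of the same strain and age without an odor was sequenced in 3 libraries each. The labels give the strain as C57BL/6, the study's methods as C57BL/6J, and neither names a further allele for these groups.

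Each olfactory sensory neuron expresses a single OR gene, and neurons that express one OR are scattered through a zone of the epithelium. When a neuron fires, its ribosomal protein S6 becomes phosphorylated, so that RNA bound to phosphorylated S6 is enriched in transcripts of active neurons, their OR among them. The count of an OR in pS6-IP-Seq is thus read as the activity of the neurons that carry it. In these bulk samples, fewer active neurons and less transcript captured per neuron cannot be told apart. Counts are also relative to those of the other ORs in a library. The paper names this proportionality as a likely contributor to smaller fold changes at higher concentrations. Its part in the values below was not tested. The tables hold ORs only, so markers of the tissue, of other cell types and of neuronal activity are not analysed here.

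Counts on ORs ran from 37012 to 128805 in the 36 pS6-IP-Seq libraries and from 155319 to 242123 in the 6 ventral and dorsal libraries. Normalized counts below are counts divided by the OR total of the library and its TMM factor, and scaled to a common size of 70994 (190480 for the ventral and dorsal libraries). Changes are fitted log2 fold changes from edgeR with their SE, and p values are Benjamini-Hochberg adjusted over all ORs, with a threshold of 0.05. The 0.1% TMT library of replicate 1 carries a file name in its label that says 1% TMT, while its odor label says 0.1%, which is used.

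The 3 receptors lie at separate loci in GRCm38 (GENCODE M21 annotation). Olfr56 is on the plus strand of chromosome 11 with its coding exon at 49134194 to 49135138. Olfr330 is on the minus strand of the same chromosome at 58529040 to 58529984, in another OR cluster, and Olfr61 is on the plus strand of chromosome 7 at 140637703 to 140638635. Olfr56 and Olfr330 encode 315 amino acids each, and Olfr61 encodes 311. Their proteins were distant from each other: identity was 52.4% between Olfr56 and Olfr330, 37.5% between Olfr56 and Olfr61, and 38.7% between Olfr330 and Olfr61. To show how far they differ, the stretches below give 120 coding bases of each, 5′ to 3′, that end at the conserved aspartate-arginine-tyrosine codons, in capitals, at the cytoplasmic end of the third transmembrane helix. They run over chr11:49134446-49134565 for Olfr56, chr11:58529604-58529723 (minus strand) for Olfr330 and chr7:140637955-140638074 for Olfr61.
Olfr56: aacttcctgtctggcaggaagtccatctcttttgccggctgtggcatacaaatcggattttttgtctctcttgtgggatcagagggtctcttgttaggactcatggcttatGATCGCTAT
Olfr330: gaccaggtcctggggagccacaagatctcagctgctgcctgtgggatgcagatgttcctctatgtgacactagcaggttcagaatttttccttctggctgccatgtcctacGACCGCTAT
Olfr61: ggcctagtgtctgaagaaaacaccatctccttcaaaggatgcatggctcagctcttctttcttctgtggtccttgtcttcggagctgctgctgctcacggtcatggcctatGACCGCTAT
Over these 120 bases, Olfr56 and Olfr330 shared 66, Olfr56 and Olfr61 shared 64, and Olfr330 and Olfr61 shared 59.

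Each receptor has a closer relative among its neighbours. The OR with the highest protein identity to Olfr56 was Olfr1396 (80%), and for Olfr61 it was Olfr541 (91.3%). The same 120 bases of these relatives follow, with the bases that differ from the receptor in capitals. They run over chr11:49113353-49113472 (minus strand) for Olfr1396, which differs from Olfr56 at 15 bases, and chr7:140704508-140704627 (plus strand) for Olfr541, which differs from Olfr61 at 11 bases.
Olfr1396: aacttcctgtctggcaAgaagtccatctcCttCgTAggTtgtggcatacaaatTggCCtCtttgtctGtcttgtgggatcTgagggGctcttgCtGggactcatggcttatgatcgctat
Olfr541: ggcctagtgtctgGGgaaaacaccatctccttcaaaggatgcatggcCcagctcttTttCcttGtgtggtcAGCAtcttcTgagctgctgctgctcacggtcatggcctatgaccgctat
For Olfr330 the closest OR was Olfr331 (93.5%), which was listed at 0 in every TMT library, and the next was Olfr325 (92%).

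Stretches that are identical between genes limit how exactly reads of 50 bases can be assigned. Of the 2862 different 50-base words in Olfr330 transcripts, 547 (19.1%) also occurred in other genes, 382 of them in Olfr331 and 370 in Olfr325. For Olfr61 it was 125 of 1399 (8.93%), 54 of them in Olfr46. For Olfr56 it was 85 of 4666 (1.82%), of which 64 lay in Ifi47, an interferon-inducible GTPase gene. The annotated Olfr56 gene model spans 48978889 to 49135387 and shares an exon of 111 bases (49087034 to 49087144) with Ifi47 on the same strand. These stretches are those of GENCODE M21, while the study counted reads on a customized annotation with its own OR models. Which of the stretches were shared there is not known. Reads from stretches shared there were divided between the genes by the estimated counts, and this part of the values is uncertain.

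Without odor, all 3 receptors were above the typical OR. Olfr56 was at the 146th place of 1088 ORs in mean normalized count over the 12 no odor mice, Olfr330 at the 148th and Olfr61 at the 282nd, with a median OR at 31.0. In these 12 mice, normalized counts of Olfr56 ran between 43.4 and 181 with a median of 106. Those of Olfr330 ran between 70.8 and 159 with a median of 111, and those of Olfr61 between 40.9 and 83.5 with a median of 58.3. Of the 3, Olfr56 varied most between unexposed mice: its highest value was 4.17 times its lowest, against 2.25 times for Olfr330 and 2.04 times for Olfr61. Its coefficient of variation of 40.1% was above that of 148 of the 159 other ORs within 1.5-fold of its level, whose median was 25.4%. Olfr330 (19%) and Olfr61 (23.9%) were below the medians of the ORs at their levels (25.4% and 28.2%).

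All 3 receptors were high at 1% TMT and close to their no odor range at 100% TMT. For Olfr330, normalized counts in litters 1, 2 and 3 were 114, 122 and 70.8 without odor, 448, 409 and 384 at 1% TMT, and 158, 124 and 114 at 100% TMT. Every 1% mouse was above every other mouse of these litters, and the 100% and no odor mice overlapped. For Olfr61 they were 78.7, 79.4 and 60.4 without odor, 440, 328 and 229 at 1%, and 116, 137 and 95.9 at 100%. Here the 100% mice lay below all 1% mice and above all no odor mice. For Olfr56 they were 74.4, 174 and 136 without odor, 347, 646 and 228 at 1%, and 83.5, 95.7 and 104 at 100%. The 100% mice were again below every 1% mouse and overlapped with the no odor mice. The 1% mouse of litter 2, with a count of 786 on Olfr56, had the highest Olfr56 value of the series, and its library was also the deepest of the 1% TMT libraries (96588 counts on ORs, against 42959 and 51867).

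**Figure D1:**
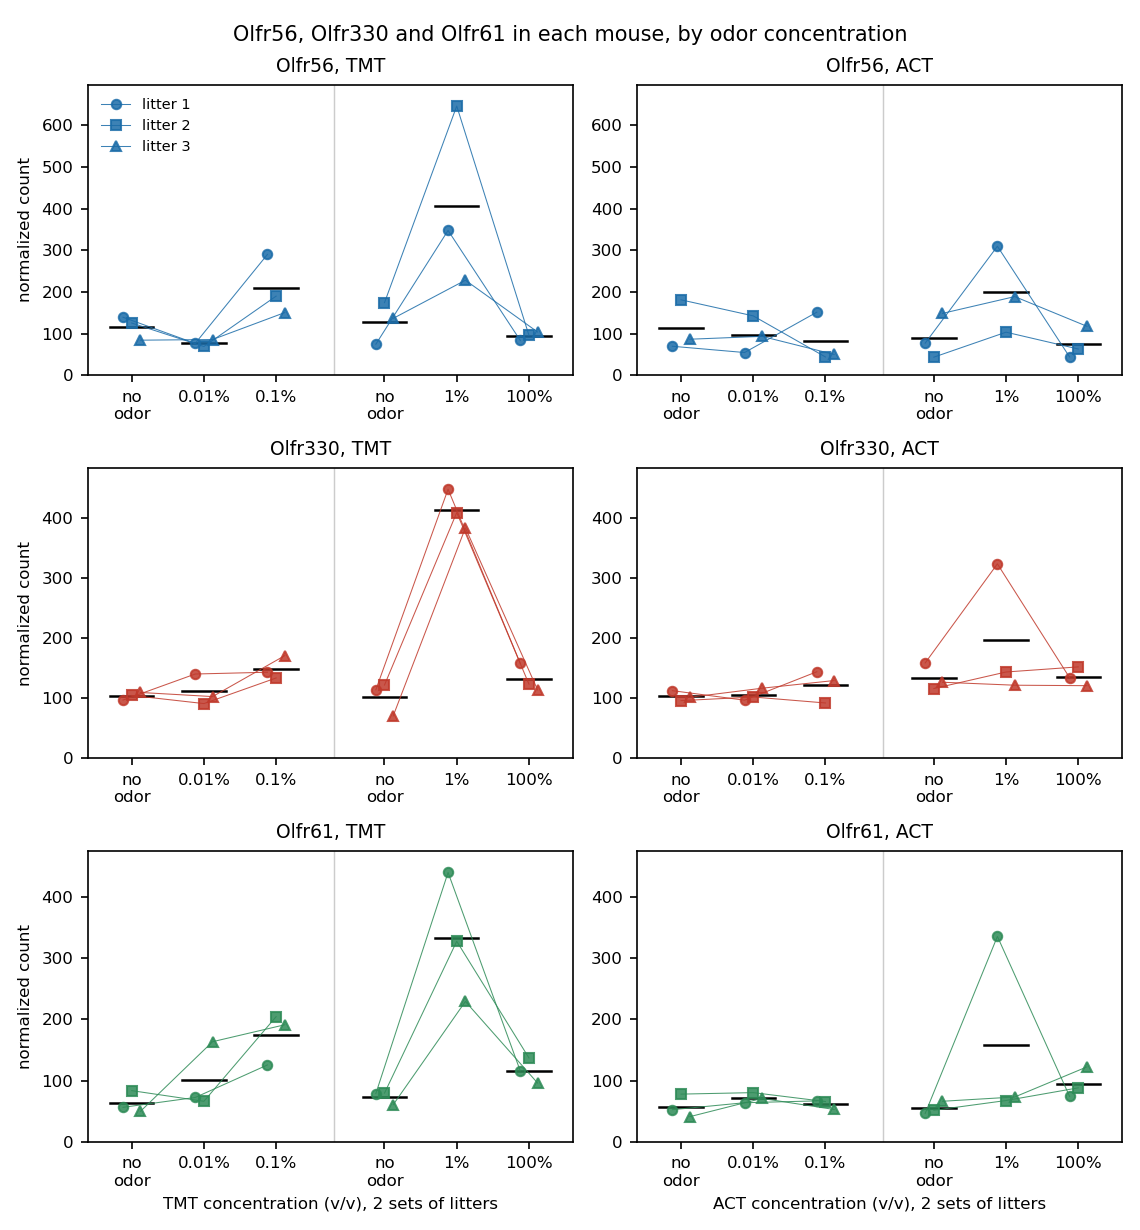
Normalized counts (y axis, linear) of Olfr56, Olfr330 and Olfr61 in each mouse by concentration (x axis, v/v) of TMT on the left and ACT on the right; symbols are litters, thin lines join littermates, and black bars are means of 3 mice. In the TMT panels the 1% mice stand above the no odor and 100% mice of their litters (229 to 440 for Olfr61), 1 mouse at 0.1% TMT (290, Olfr56) is above the lowest 1% mouse (228), and in the ACT panels 1 mouse, of litter 1 at 1%, stands apart for Olfr330 and Olfr61.

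The fitted change against no odor at 1% TMT was 2.12 ± 0.25 (SE, n = 3 pairs) for Olfr61, 1.99 ± 0.25 for Olfr330 and 1.59 ± 0.25 for Olfr56. At 100% TMT it was 0.62 ± 0.28 for Olfr61, 0.34 ± 0.27 for Olfr330 and -0.42 ± 0.27 for Olfr56. Olfr56 was lower than its no odor littermate in litters 2 and 3 at 100% TMT, while Olfr61 was higher in all 3 litters (0.55, 0.78 and 0.66) and Olfr330 in 2, with a change of 0.02 in litter 2. Of all ORs, 4.69% were called higher at 1% TMT and 11.6% at 100% TMT. Of the 51 ORs called higher at 1% TMT, 41 were also called higher at 100% TMT.

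Between 100% and 1% TMT, the change was -2.00 ± 0.27 for Olfr56, -1.64 ± 0.24 for Olfr330 and -1.47 ± 0.25 for Olfr61, which are 0.251, 0.321 and 0.362 times the 1% level. Each of the 3 litters showed the lower value at 100%: the change per litter was between -2.74 and -1.13 for Olfr56, between -1.74 and -1.50 for Olfr330 and between -1.92 and -1.25 for Olfr61. Of all ORs, 1.75% were called lower at 100% than at 1% TMT and 69 were called higher. A lower fitted value, of any size, was not particular to the 3 receptors. Of the 51 ORs called higher at 1% TMT, these 3 included, 31 were lower at 100% TMT. The median change of the 51 was -0.28. These 51 were picked by high values in the 1% TMT libraries, which are also the reference of this change. Their values are therefore given only as a description. Over all 1088 ORs, 559 were lower, with a median of -0.02. In that full list, Olfr56, Olfr330 and Olfr61 were at the 20th, 29th and 34th place from the lowest change. Among the 729 ORs whose mean count was 20 or more, they had the lowest changes, in the same order, on the contrast that chose them. The OR just outside was Olfr725 with -1.43 ± 0.59, which averaged 6.67 ± 4.38 at 100% TMT and 17.5 ± 3.62 at 1% TMT (normalized counts, SD, n = 3 each) and was no higher at 1% TMT than without odor (0.00 ± 0.43). Among ORs called higher at 1% TMT, at any mean count, the next in order was Olfr1506 with -1.26. Its mean count was below 20. Its changes against no odor were 2.23 at 1% TMT and 0.61 at 100% TMT.

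**Figure D2:**
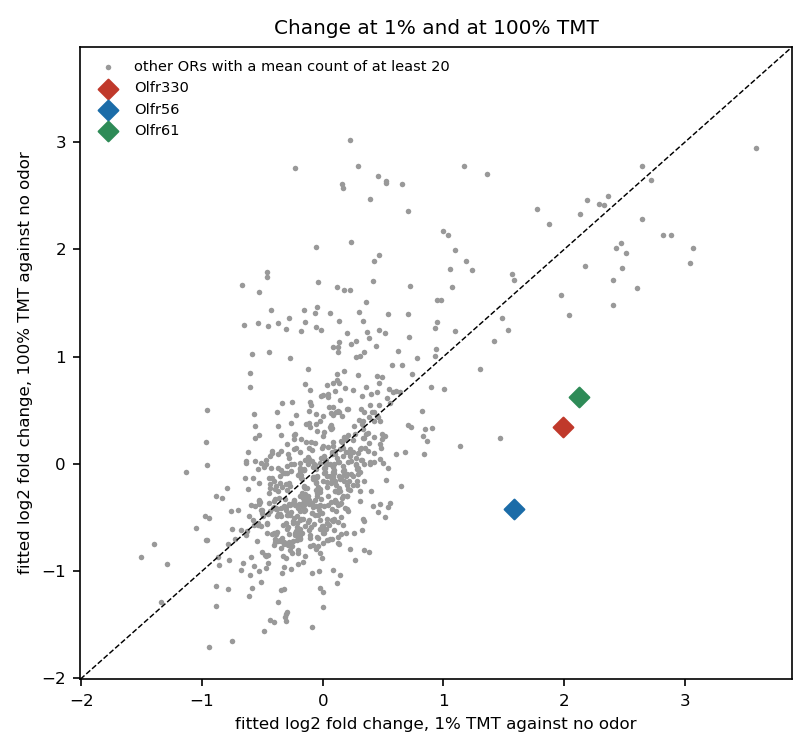
Fitted log2 fold change against no odor at 1% TMT (x axis) and at 100% TMT (y axis) for 729 ORs with mean counts of 20 or more; the dashed line marks equal changes and the 3 receptors are diamonds. Olfr61 (2.12 and 0.62), Olfr330 (1.99 and 0.34) and Olfr56 (1.59 and -0.42) lie farther below the dashed line than the other ORs plotted at high 1% TMT changes; the receptors were selected on this difference.

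At 0.1% TMT, which had no part in the choice, 2 of the 3 receptors rose, where 1.38% of all ORs were called higher. Olfr61 rose most, by 1.47 ± 0.24 (2.77-fold, adjusted p = 3.25e-07, edgeR). Its normalized counts were 126, 205 and 191 at 0.1% TMT, against 56.2, 83.5 and 49.5 in no odor littermates. The groups did not overlap, and the change per litter was 1.15, 1.28 and 1.93. Olfr56 rose by 0.84 ± 0.24 (1.79-fold, adjusted p = 0.0229), with 290, 190 and 150 at 0.1% TMT, against 139, 125 and 84.1 without odor. Its groups did not overlap, but the call was lost without any one of the 3 litters (adjusted p of 0.0817 to 0.192) and without the litter block (adjusted p = 0.165), whereas that of Olfr61 was kept. Olfr330 differed by 0.53 ± 0.24 and did not pass (adjusted p = 0.537), with 143, 134 and 171 at 0.1% TMT, against 97.2, 105 and 110 without odor. Its values were higher in all 3 litters and did not overlap with those of the no odor mice. How many of all ORs also lacked overlap was not counted. Overlap is therefore given only as a description, here and below.

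At 0.01% TMT, 0 of the 3 receptors were called higher by edgeR or DESeq2, where edgeR called 0.368% of all ORs higher. At an unadjusted p under 0.05 none was higher and 1, Olfr56, was lower. Olfr56 had 76.5, 69.0 and 85.7 at 0.01% TMT, against 139, 125 and 84.1 without odor (-0.58 ± 0.26, adjusted p = 0.842), and its litters 1 and 2 were below all 3 no odor mice. Olfr330 had 141, 91.3 and 103, against 97.2, 105 and 110 (0.07 ± 0.24, adjusted p = 1). Olfr61 had 72.3, 66.1 and 164, against 56.2, 83.5 and 49.5 (0.58 ± 0.30, adjusted p = 0.91), and only the mouse of litter 3 stood above the no odor range. All 3 receptors thus overlapped with the no odor mice at the lowest concentration.

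The step between 0.1% and 0.01% TMT, fitted over all 18 TMT libraries, was called for Olfr56 alone, beside 0.46% of all ORs. Its change was 1.39 ± 0.26 (2.62-fold, adjusted p = 4.06e-04), higher in 3 of 3 litters and with no overlap between the concentrations. Without replicate 1 of both sets of litters the adjusted p was 0.0625. Olfr61 differed by 0.82 ± 0.25 (adjusted p = 0.191) and passed only without replicate 3 (adjusted p = 0.0192), the litter whose 0.01% mouse was high. Olfr330 differed by 0.44 ± 0.24 (adjusted p = 1).

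ACT is an aromatic ketone, and its libraries show the same receptors with another odorant. At 0.01%, 0.1% and 100% ACT, 0 of the 3 receptors were called by edgeR or by DESeq2, and none was higher at an unadjusted p under 0.05. Of all ORs, edgeR called 0% higher at 0.01% ACT (18 ORs at an unadjusted p under 0.05, and 2 by DESeq2), 0.643% at 0.1% ACT and 0% at 100% ACT (114 ORs at an unadjusted p under 0.05, and 22 by DESeq2). Changes of Olfr330 at these concentrations were between 0.00 and 0.24, with an SE of at most 0.33. For Olfr61 they were 0.37 ± 0.31, 0.17 ± 0.27 and 0.76 ± 0.35 at 0.01%, 0.1% and 100% ACT. At 100% ACT the Olfr61 counts of 74.0, 88.1 and 122 were above those of 46.1, 51.3 and 66.1 in no odor littermates without overlap (adjusted p = 0.355). For Olfr56 the changes were -0.20 ± 0.28, -0.55 ± 0.65 and -0.23 ± 0.38. At 0.1% ACT, litters disagreed on Olfr56: it had 151, 43.8 and 49.9 at 0.1% ACT, against 69.5, 181 and 86.4 without odor.

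At 1% ACT, the mouse of litter 1 had high counts of all 3 receptors. Olfr61 had 336, 67.3 and 73.1 at 1% ACT, against 46.1, 51.3 and 66.1 without odor. Olfr330 had 324, 144 and 122, against 159, 116 and 127, and Olfr56 had 310, 103 and 189, against 76.9, 43.4 and 148. Olfr56 was called higher (1.18 ± 0.27, adjusted p = 0.00143), beside 1.38% of all ORs. Olfr61 (1.10 ± 0.39, adjusted p = 0.30) and Olfr330 (0.42 ± 0.26, adjusted p = 0.835) were not. Without litter 1, the Olfr56 change was 0.75 with an adjusted p of 0.522, and without litter 2 it was 1.13 with an adjusted p of 0.965. Without litter 3, Olfr61 also passed (1.60, adjusted p = 0.004). DESeq2 gave Olfr56 an adjusted p of 0.618 and edgeR's likelihood ratio test gave 0.123. In the litter 1 library at 1% ACT, 12 of 13 other ORs called higher at 0.1% TMT were above their no odor littermate, with a median change of 2.82, against 0.43 and -0.04 in litters 2 and 3. The library of litter 1 at 0.01% ACT had a median of 2.37 over the same 13 ORs, with 12 higher, while the 3 receptors changed there by -0.35 (Olfr56), -0.22 (Olfr330) and 0.28 (Olfr61). At 100% ACT these 13 ORs had medians of 1.11, 0.61 and 0.73 in litters 1, 2 and 3, with 12, 10 and 9 of them higher, where Olfr61 changed by 0.67, 0.77 and 0.88. The part of this pattern in the values of the 3 receptors with ACT was not tested.

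From the same step in concentration with ACT, 0 of the 3 receptors were called lower at 100% than at 1% by edgeR or DESeq2, where edgeR called 0% of all ORs lower (48 ORs were lower and 90 higher at an unadjusted p under 0.05, and DESeq2 called 4 lower). Olfr56, the only one of the 3 under 0.05 before adjustment, differed by -1.39 ± 0.58 (adjusted p = 0.366), with 43.8, 62.9 and 117 at 100% ACT, against 310, 103 and 189 at 1% ACT, lower in 3 of 3 litters. Olfr330 differed by -0.40 ± 0.29 and Olfr61 by -0.47 ± 0.48 (adjusted p of 0.607 and 0.762). Both were much lower at 100% ACT in litter 1 (-1.26 and -2.17), while in litters 2 and 3 Olfr330 changed by 0.08 and -0.01 and Olfr61 by 0.38 and 0.73.

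To ask whether the response at 0.1% differed between the odorants, the response to 0.1% TMT minus that to 0.1% ACT was fitted over all 36 libraries. By edgeR, 0 of the 3 receptors passed, 1 of them (Olfr61) was under 0.05 before adjustment, and 0.276% of all ORs were called higher for TMT. The difference was 1.28 ± 0.55 for Olfr61, 1.23 ± 0.66 for Olfr56 and 0.30 ± 0.35 for Olfr330, with an adjusted p of 1 for each. DESeq2 called 0 of the 3. Without replicate 1 the Olfr56 difference was 2.10 with an adjusted p of 0.0176. A difference between the odorants at 0.1% was thus not shown for these receptors, and the SEs leave a wide range.

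The response patterns can be compared with those of other ORs through the root mean square (RMS) difference of the 8 fitted changes against no odor, over 4 TMT and 4 ACT concentrations. This includes the 1% and 100% TMT values used in the choice and is given as a description. Closest to Olfr330 was Olfr325, with an RMS difference of 0.34, then Olfr449 (0.42) and Olfr220 (0.43), where the median over 728 ORs was 0.90. Closest to Olfr56 were Olfr330 (0.57), Olfr325 (0.57) and Olfr449 (0.58), and closest to Olfr61 were Olfr31 (0.41), Olfr1353 (0.48) and Olfr193 (0.51). Olfr61 was at the 86th place in likeness to Olfr56, and Olfr330 was at the 7th place in likeness to Olfr61. The medians over all ORs were 0.95 for Olfr56 and 1.17 for Olfr61.

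Relatives of the 3 receptors differed in what they did at 100% TMT. Olfr325 is close to Olfr330 in sequence and location, but was named for its likeness in response. That likeness includes its 1% and 100% TMT changes, which are therefore given as a description without a test. Olfr325 averaged 142.6 ± 44.4 normalized counts at 1% TMT, against 50.0 ± 18.7 without odor, a change of 1.47 ± 0.28. At 100% TMT it averaged 60.2 ± 12.9, a change of -1.18 ± 0.30 against 1% TMT. Because Olfr325 and Olfr330 share identical 50-base words, these are not fully separate measurements. Olfr541, the closest relative of Olfr61, averaged 91.1 ± 13.1 without odor, 201 ± 34.4 at 1% TMT and 233 ± 85.4 at 100% TMT. It rose by 1.10 ± 0.25 at 1% (adjusted p = 2.80e-04) and by 1.24 ± 0.27 at 100% (adjusted p = 1.15e-04), and between 100% and 1% it differed by 0.19 ± 0.24 (adjusted p = 0.78). Olfr1396, the closest relative of Olfr56, averaged 132 ± 30.0 without odor, 148 ± 32.4 at 1% TMT and 140 ± 10.7 at 100% TMT (changes of 0.12 ± 0.24 at 1% and 0.06 ± 0.27 at 100%, adjusted p of 1 and 0.963). Both changes were smaller than their SE. Olfr1396 lies on the minus strand inside the annotated Olfr56 gene model, and the library kit does not mark strand. Differences between a receptor and its relative were not tested.

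**Figure D3:**
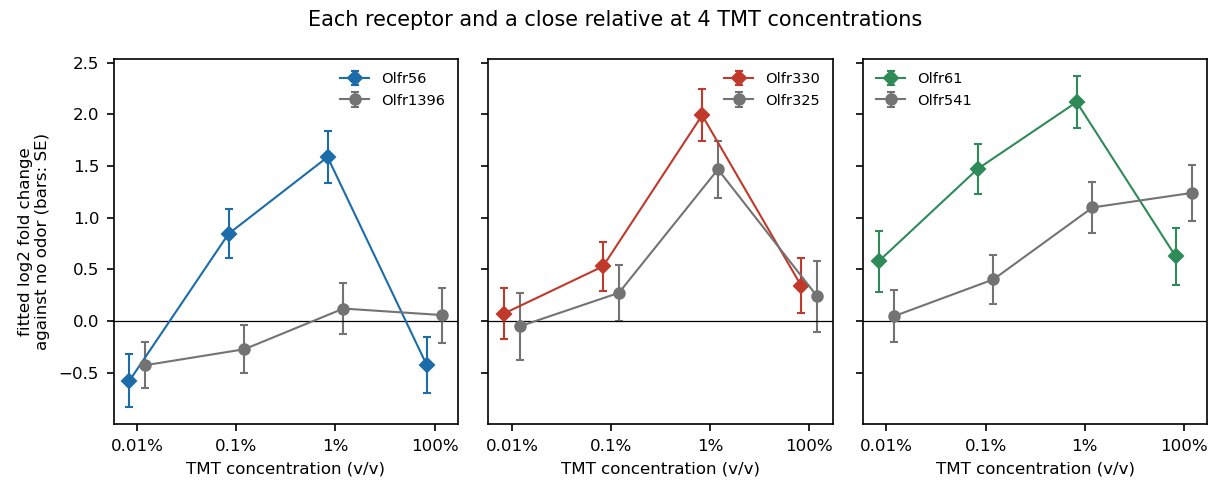
Fitted log2 fold change against no odor (y axis, bars are SE, n = 3 pairs) at 4 TMT concentrations (x axis, v/v) for Olfr56 with Olfr1396, Olfr330 with Olfr325 and Olfr61 with Olfr541. Olfr325 follows Olfr330 with 1.47 at 1% and 0.24 at 100%, Olfr541 stays at 1.24 at 100% where Olfr61 is at 0.62, and Olfr1396 stays between -0.43 and 0.12.

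Within 250 kb of the annotated start of a receptor, 29 other intact ORs were listed, 3 near Olfr56, 15 near Olfr330 and 11 near Olfr61. For Olfr56 this start (48978889) lies far upstream of the coding exon (from 49134194). Its window therefore reaches less far past that exon. At 1% TMT, 9 of the 29 were called higher (median change 0.33), against 51 of all 1088 ORs (median -0.04). At 100% TMT, 10 of the 29 were (median 0.33), against 126 of all 1088 (median -0.08). Of these 10, 8 lay near Olfr61, 1 near Olfr330 and 1 near Olfr56. Between 100% and 1% TMT, 5 of the 29 were called higher and only Olfr325 lower, against 69 higher and 19 lower of all 1088. The 3 loci differed in this step. Near Olfr61, 4 of 11 were called higher and 0 lower (median 0.54). Near Olfr330, 1 of 15 was called higher and 1 lower (median -0.24). None of the 3 near Olfr56 was called (median -0.41). At 0.1% TMT 2 of the 29 were called higher, Olfr1395 and Olfr531, against 15 of all 1088. The median was -0.01 over the list and 0 over all ORs. Olfr1395, whose gene follows Olfr56 on the same strand, averaged 1759 ± 143 at 0.1% TMT, against 261 ± 85.1 without odor (2.81 ± 0.32, adjusted p = 3.57e-16), and was also called at 0.01% TMT (1.93 ± 0.29, adjusted p = 1.06e-07). It averaged 1207 ± 438 at 100% TMT, against 1547 ± 127 at 1% TMT (-0.41 ± 0.26, adjusted p = 0.435). Olfr531, near Olfr61, was the only neighbour called between 0.1% and 0.01% TMT.

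All 3 receptors were higher in ventral than in dorsal mucosa, a readout independent of odor exposure. Of all ORs, 37.2% were called ventral. Olfr330 had 364, 266 and 272 normalized counts in ventral libraries, against 4.81, 38.0 and 7.74 in dorsal libraries, a 24.3-fold difference (log2 4.60 ± 0.80, adjusted p = 2.71e-04). Olfr61 had 133, 125 and 119 in ventral libraries, against 13.5, 51.1 and 10.3 in dorsal libraries (2.66 ± 0.67, adjusted p = 0.0033). Olfr56 had 99.0, 63.9 and 87.4, against 21.2, 22.6 and 11.6 (2.19 ± 0.58, adjusted p = 0.00412). No receptor had overlapping groups, and the median over all ORs was 0.65. Dorsal library 2 had the highest dorsal value of each receptor, and there the 401 other ORs called ventral took 17.5% of OR counts, against 5.06% and 3.34% in the other dorsal libraries and 67.1% to 73.3% in the ventral libraries. Without replicate 1 or replicate 3, Olfr330 alone passed, and adjusted p values were 0.0713 to 0.079 for Olfr56 and 0.0546 to 0.0727 for Olfr61. Without replicate 2, which holds that dorsal library, all 3 passed. The size of the difference also moved with the libraries: for Olfr330 it was 5.51 without replicate 2, 3.86 without replicate 1 and 4.35 without replicate 3 (log2), and for Olfr61 it was 3.25 without replicate 2. Of the 29 neighbouring ORs, 19 were called ventral and 2 dorsal, against 404 ventral and 407 dorsal of 1087 ORs. All 11 near Olfr61 were called ventral. Of the 15 near Olfr330, 8 were called ventral and 2 dorsal, while 0 of the 3 near Olfr56 were called.

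**Figure D4:**
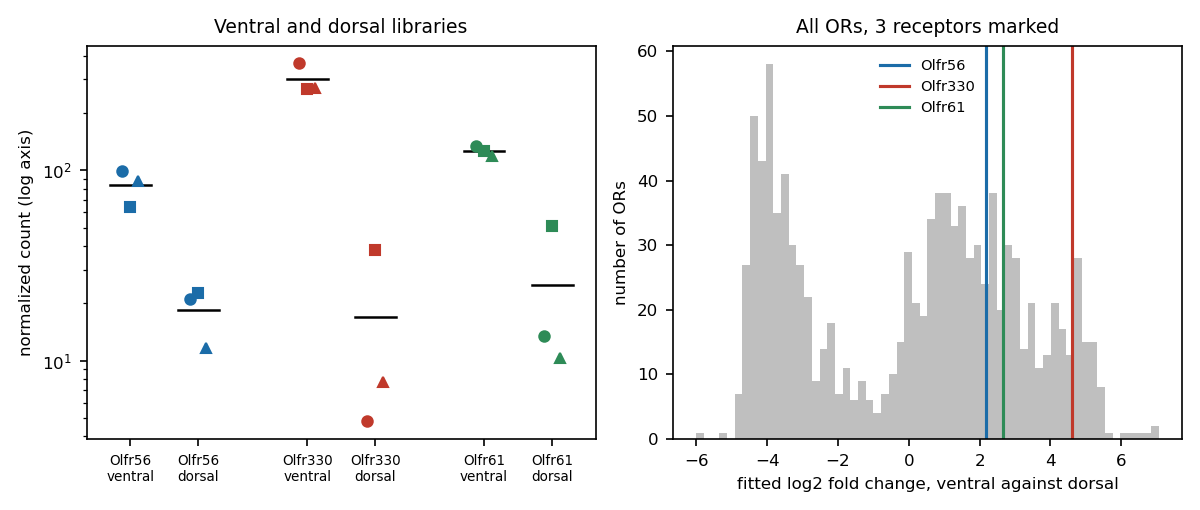
Left, normalized counts (log axis) of the 3 receptors in each ventral and dorsal library, with symbols for replicate numbers and bars for means. Right, histogram of the fitted log2 fold change of ventral against dorsal mucosa over all ORs (x axis) with the number of ORs (y axis); Olfr56 is at 2.19, Olfr61 at 2.66 and Olfr330 at 4.60, on the ventral side.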

How the data were processed

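The deposited tables hold expected counts per intact OR, rounded to whole numbers, which the authors obtained with RSEM from 50-base reads aligned by STAR to GRCm38. Genes other than ORs are not analysed here. The libraries come from a SMART-Seq kit that does not mark strand. Columns of the authors' own comparisons (fold changes, log2 CPM, p and FDR values, mean signals) were not used. Depth was 37012 to 128805 counts on ORs in pS6-IP-Seq libraries and 155319 to 242123 in the others. All per-sample count columns were mapped to a sample, and 12 no odor columns that appear in more than one table were identical.

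Counts were tested with edgeR 4.0.16 in R 4.3.3 (glmQLFit, robust, and glmQLFTest, two-sided), with TMM over ORs, no filter on low counts, and litter (for ventral and dorsal libraries, the replicate number, as in the code of the study) as a block. ORs without a count got a p of 1, and p values were adjusted over all ORs. Each SE was taken as the log2 fold change over the root of its F statistic. Changes per litter used a pseudocount of 1. The test was also run on simulated counts for some of the comparisons. These counts had a common spread over ORs and no litter effect, unlike the data, and the outcome is not reported here. Alternatives were other scaling, a filter at a mean count of 10, no block, each replicate left out, a joint fit of 18 libraries, edgeR's likelihood ratio test and DESeq2 1.42.0. P values set a change against the spread between mice or libraries that remains after the block, estimated with information shared over ORs. In joint fits this spread came from all libraries of the fit.

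The members and lists were chosen with earlier results of these data known. Other ORs named, among those with a mean count of 20 or more for the first and second lists, are, for each receptor, the 3 with the smallest RMS difference, its neighbours in the order of the 100% against 1% TMT change, the OR of highest protein identity, and neighbours within 250 kb that were called in a tested comparison; Olfr1506 was named after its value was seen. Protein identity came from coding sequences of 1069 ORs in GENCODE M21 read from GRCm38 and compared with blastp 2.17.0, in place of a protein table. Of 1088 ORs, 1082 were placed uniquely; Olfr329 is not listed in the ventral and dorsal table.

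Pairing rests on the study's description of littermates per replicate. Deviations from group means of same-numbered mice had median correlations of 0.0612 (low) and 0.16 (high) for ACT and 0.11 (low) and 0.0789 (high) for TMT. Labels of the ventral and dorsal libraries carry the pS6 protocol, while the paper describes total RNA, which is followed here.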

Additional observations from a re-analysis of the deposited data

How the results depend on the processing

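The lower values at 100% than at 1% TMT kept their direction in all alternatives run, with a median of the 3 receptors of -1.64. The median changes at 1% TMT (1.99) and 100% TMT (0.34) moved by less than the spread between litters. These fits reuse the libraries that chose the receptors, so a kept direction is a description and no separate support. At 100% TMT, scaling by total counts shifted the median of all ORs to -0.32 (main -0.08) and the Olfr61 change to 0.38. It also gave 105 ORs called higher and 101 lower, against 126 and 36 in the main analysis. At 0.1% TMT, 2 receptors were called in the main analysis and 1, Olfr61, in the fit without a replicate block or pairing, the joint fit of 18 libraries and DESeq2; leaving out a replicate gave 1 each time. At 1% ACT, 1 receptor was called in the main analysis and 0 with the filter on low counts, without the replicate block, in the joint fit, by the likelihood ratio test and by DESeq2; leaving out a replicate gave 0 to 2. Between 0.1% and 0.01% TMT, 1 receptor was called, and 0 to 2 with a replicate left out. For the response to 0.1% TMT minus 0.1% ACT, 0 were called, and 0 to 1 with a replicate left out. Between ventral and dorsal mucosa 3 were called, also without the replicate block (adjusted p of 0.00131 to 0.00852), and 1 to 3 with a replicate left out. Same-numbered ventral and dorsal libraries did not deviate together (median correlation -0.307, 3 pairs). A shared origin of same-numbered libraries was thus not shown, and 3 pairs cannot exclude it. The block changed no other call of the 3 receptors. Apart from these leave-one-out fits, the cause of the changes was not tested. Over all ORs, calls at 1% ACT ran between 0 and 19 higher across alternatives and at 100% ACT between 0 and 82 (82 without replicate 1), where the main counts were 15 and 0, and ventral calls ran between 201 and 482, where the main count was 404. The depth of 37012 to 128805 counts on ORs limits changes that can be seen in a single receptor with about 50 to 100 counts.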
